A study of Mus musculus with 6 samples.

Results

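The nucleolar factors that build ribosomes were followed in 2 populations of mouse small-intestinal crypt cells, as 42 genes named by symbol, all of which were found among the 23565 genes of the count table. They comprise RNA polymerase I and its factors, the protein cores of the small nucleolar ribonucleoproteins (snoRNPs), abundant nucleolar chaperones, and assembly factors of the small and the large ribosomal subunit. Sorted tdTomato+ cells of HopXCreER::Rosa26LSL-tdTomato mice make up 3 libraries (Hopx-CreER), and eGFP/tdTomato double-positive cells of Lgr5eGFP-IRES-CreER::Rosa26LSL-tdTomato mice make up the other 3 (Lgr5-CreER). Both genotypes carry the Rosa26 tdTomato reporter, both received 1 mg of tamoxifen, and crypts were taken 16 h later from 3 mice of each genotype per the series description. The Hopx or Lgr5 locus drives the tamoxifen-dependent Cre that switches the reporter on, and in the Lgr5 line the same allele also makes the eGFP used in the gate. Genotype and gate therefore differed together and cannot be told apart. The sources used here give no age or sex of the mice.

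Ribosome production begins in the nucleolus, where RNA polymerase I transcribes the ribosomal DNA (rDNA) into a long precursor. Box C/D and box H/ACA snoRNPs then methylate and pseudouridylate this RNA, and a large cast of processing factors, helicases and GTPases cuts, folds and packs it into the small and the large subunit. The pathway is a classical target of the transcription factor MYC, and crypt stem and progenitor cells, which divide often, need a steady supply of ribosomes.

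Promoters offered one feature of the members that had no part in their choice. RefSeq promoters on GRCm38.p6, each reaching from 250 bases before to 50 bases after the gene's most upstream start, were matched for 37 of the 42 members. The letters CACGTG, an E-box that MYC binds together with its partner MAX and that reads the same on both strands, lay in 8 of the 37 (21.6%), against 10.3% of 9141 tested genes with a matched promoter and 7.91% of 17492 protein-coding promoters. These 8 were Ltv1, Mybbp1a, Nop2, Pes1, Rrn3, Tsr1, Utp20 and Wdr43. The letters CCGGAAGT, which ETS-family factors bind, were present on either strand in 10 of the 37 (27.0%), against 8.84% of the tested genes. Among 92 other ribosome biogenesis promoters the shares were 16.3% for CACGTG and 26.1% for CCGGAAGT, the latter close to that of the members. The palindromic motif of the factor NRF1 was in 0 of the 37 and in 2.13% of the tested genes. No motif contains another, and a match is a stretch of letters, not a measured binding site. Of the 6 genes called lower in Hopx-CreER cells (below), Nat10, Rrp1b and Wdr75 held neither CACGTG nor CCGGAAGT. The promoters of the other 3, which hold at least 1 of these motifs, are shown 5′ to 3′ with CACGTG and CCGGAAGT in capitals. Mybbp1a (chr11:72441077-72441376, plus strand) holds CACGTG from base 41 after the start, Tsr1 (chr11:74897830-74898129, plus strand) holds CCGGAAGT from base -1 and CACGTG from base 25, and Heatr1 (chr13:12395125-12395424, plus strand) holds CCGGAAGT from base -16.
Mybbp1a: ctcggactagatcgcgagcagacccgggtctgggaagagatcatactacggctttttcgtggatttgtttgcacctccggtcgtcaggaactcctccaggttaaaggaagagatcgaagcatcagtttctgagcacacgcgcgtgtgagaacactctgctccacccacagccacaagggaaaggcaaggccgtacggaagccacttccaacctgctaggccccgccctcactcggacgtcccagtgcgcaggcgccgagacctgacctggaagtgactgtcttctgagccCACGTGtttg
Tsr1: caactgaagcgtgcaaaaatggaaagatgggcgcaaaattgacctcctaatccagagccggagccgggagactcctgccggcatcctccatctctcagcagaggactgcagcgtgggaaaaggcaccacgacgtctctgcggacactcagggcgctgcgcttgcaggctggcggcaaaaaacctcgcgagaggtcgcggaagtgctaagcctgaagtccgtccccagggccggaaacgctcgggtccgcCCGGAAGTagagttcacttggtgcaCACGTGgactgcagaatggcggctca
Heatr1: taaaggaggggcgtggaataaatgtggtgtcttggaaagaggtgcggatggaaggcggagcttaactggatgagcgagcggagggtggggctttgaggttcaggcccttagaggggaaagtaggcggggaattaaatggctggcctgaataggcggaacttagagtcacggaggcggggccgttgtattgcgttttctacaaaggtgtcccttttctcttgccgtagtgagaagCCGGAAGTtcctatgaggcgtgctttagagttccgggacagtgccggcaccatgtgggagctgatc

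Fitted levels of the nucleolar genes were below those of Lgr5-CreER cells in nearly every case, by small amounts, and most single genes did not pass the test. All 42 passed the filter on low counts, and 41 had a log2 fold change below 0 (a lower level in Hopx-CreER cells), as had 52.8% of the 12439 genes tested. The median log2 fold change was -0.36 over the members and -0.03 over all tested genes. In 27 members every Hopx-CreER library lay below every Lgr5-CreER library, an order seen in 16.2% of tested genes. By the edgeR quasi-likelihood test, with Benjamini-Hochberg adjustment over all tested genes and a threshold of 0.05, 6 members (14.3%) were lower, beside 3.30% of all tested genes. No member was called higher, beside 9.45% of all tested genes, and none had all Hopx-CreER libraries above all Lgr5-CreER libraries, an order seen in 18.8%. At an unadjusted p under 0.05 the counts were 23 lower and 0 higher, beside 11.1% and 16.3% of tested genes. DESeq2 called 12 lower and 0 higher, with 5.58% of all tested genes called lower by that tool, and limma-voom 6 lower and 0 higher, with 3.30% of all tested genes called lower. For the 27 members with separate groups, the exact two-sided permutation test on CPM (the normalised read count, a gene's reads relative to the TMM-scaled total of its library) gave p = 0.1, the smallest that 3 against 3 libraries allow.

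**Figure D1:**
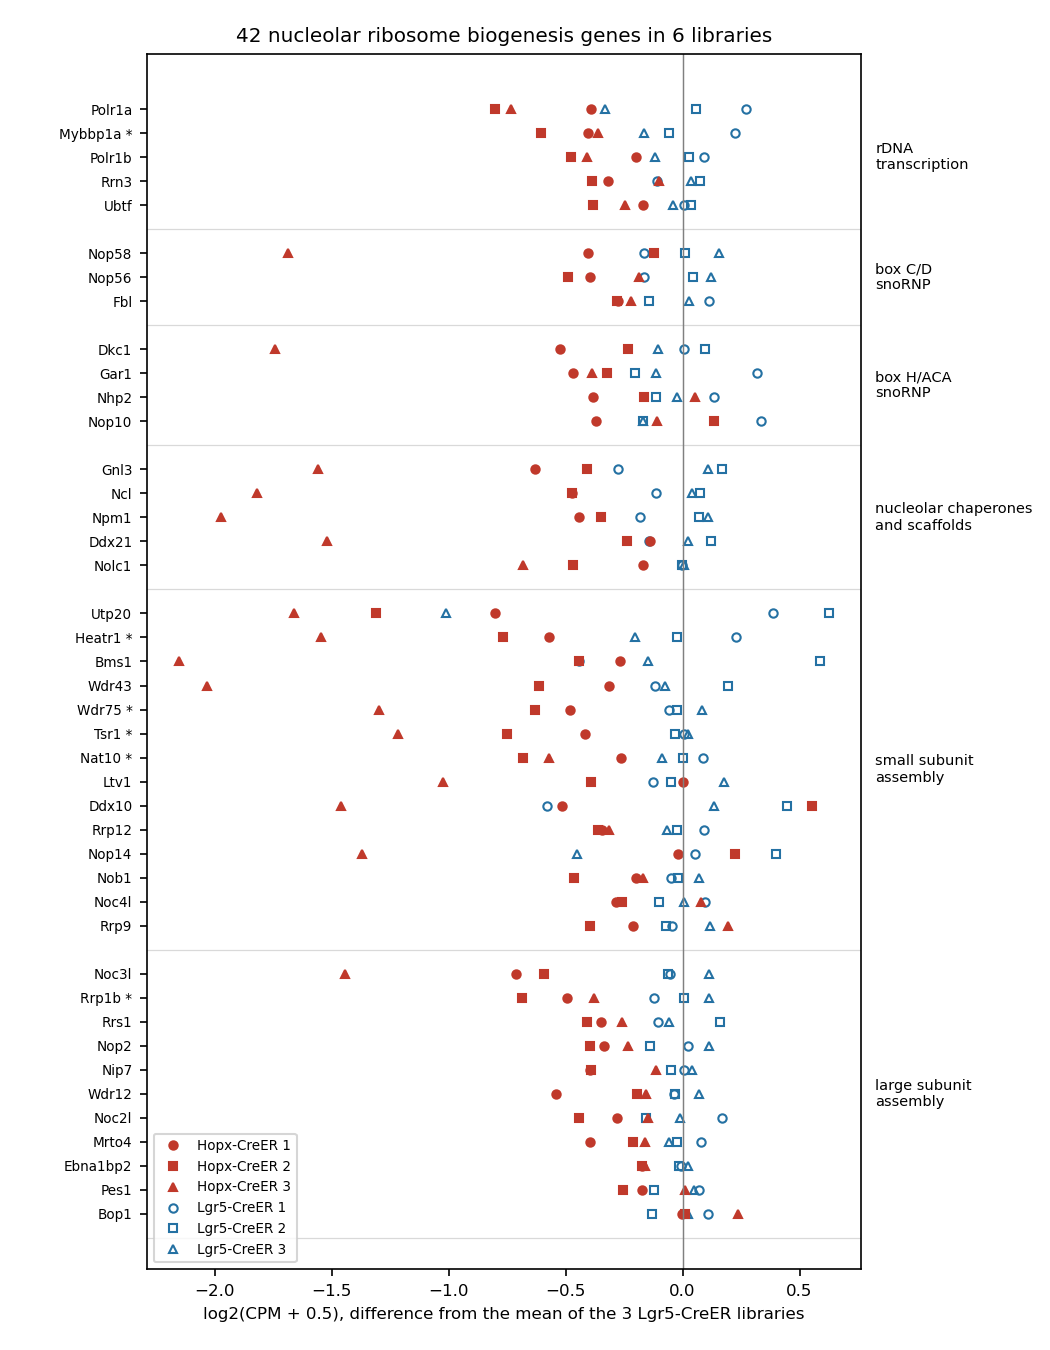
Level of each of the 42 genes in each library, as log2(CPM + 0.5) minus the mean of the 3 Lgr5-CreER libraries, with genes grouped by role and an asterisk on the 6 called lower by edgeR. Filled red symbols are Hopx-CreER libraries and open blue symbols Lgr5-CreER libraries, and the red triangles of Hopx-CreER library 3 lie more than 1 log2 unit below the mean of Hopx-CreER libraries 1 and 2 for 10 genes.

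The number of calls rested on single libraries, while the median did not. Without Lgr5-CreER library 1 or 2, or without Hopx-CreER library 2, edgeR called 0 members (16, 17 and 17 at an unadjusted p under 0.05), and without Lgr5-CreER library 3 it called 2, neither of them among the 6. Without Hopx-CreER library 1 it called 6, with 4 of the 6 kept. Without Hopx-CreER library 3 it called 11 members, the 6 included. Over all tested genes the share called lower was 4.6% in that fit and 3.14% without Hopx-CreER library 1. This share was 1.7% without Hopx-CreER library 2. It was 1.58%, 0.911% and 1.26% without Lgr5-CreER library 1, 2 and 3. Summing the 2 Lgr5-CreER columns whose names share a number (libraries 2 and 3) also left 0 calls. In that fit 17 members were at an unadjusted p under 0.05, and 131 of 12861 tested genes were called lower. For fits with a library left out or columns summed, no share of all tested genes at an unadjusted p under 0.05 is given. In these fits the median log2 fold change of the members stayed between -0.40 and -0.37. Nothing in the labels ties a library to a mouse, so p-values measure the spread between these libraries.

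Depth was similar across libraries, at 10839306 to 14570555 counts in total, and a single count equalled 0.0668 to 0.0926 CPM. Epcam, an epithelial adhesion protein, stood at 2204 ± 188 CPM (SD, n = 3) in Hopx-CreER and 2248 ± 134 CPM in Lgr5-CreER cells. Summed over the 8 listed epithelial markers, Epcam among them, levels were 15977 to 17492 CPM in Hopx-CreER and 10785 to 11564 CPM in Lgr5-CreER libraries. Of these 8 markers, 3 were called higher and 0 lower. The 8 immune markers together reached 2.18 to 5.32 CPM in Hopx-CreER and 1.90 to 2.20 CPM in Lgr5-CreER libraries. The 5 stromal and endothelial markers found summed to 1.019 to 3.55 CPM in Hopx-CreER and 0 to 1.55 CPM in Lgr5-CreER libraries. Col1a1 of fibroblasts and Cdh5 of endothelium had 0 counts, and the 1 tested gene of that list, Pecam1, had a log2 fold change of 1.51 (edgeR adjusted p 0.306). The 42 members made up 0.374% to 0.391% of a Hopx-CreER library and 0.511% to 0.534% of a Lgr5-CreER library. The Hopx-CreER cells also held less RNA of 13 Lgr5 stem cell markers (summed level 3623 to 5536 CPM, against 11326 to 11845 CPM), with 11 of 13 called lower and 0 higher. They held more of 11 Paneth cell markers (15297 to 33115 against 1701 to 3368 CPM) and of 12 enteroendocrine markers (3387 to 8847 against 202 to 339 CPM), with 10 and 11 called higher and 0 lower. Goblet, tuft and enterocyte lists had 8 of 10, 9 of 11 and 10 of 13 tested markers called higher and 0 lower. The part of this shift in cell makeup in the results on nucleolar genes was not tested, and in bulk RNA fewer cells of a type and less RNA per cell cannot be told apart.

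Genes for rDNA transcription were lower in Hopx-CreER cells in each of 5 cases by their fitted values, and 1 passed the test. Mybbp1a, a nucleolar protein that binds MYB and takes part in rRNA synthesis and processing, read 385, 334 and 395 CPM in Hopx-CreER libraries 1, 2 and 3, against 595, 488 and 453 CPM in Lgr5-CreER cells. All Hopx-CreER values were below all Lgr5-CreER values, and Lgr5-CreER library 1 was the highest. The log2 fold change of Mybbp1a was -0.46 ± 0.13 (SE; edgeR adjusted p 0.0468). This call was lost with RLE size factors (edgeR adjusted p 0.052), with TMM factors computed without marker genes of differentiated cells and the most abundant genes (0.0608), with the same-numbered columns summed (0.0817), and in 5 of the 6 fits that left out a library (0.0643 to 0.151). Without Hopx-CreER library 3 it held (edgeR adjusted p 0.0264). Polr1a, the largest catalytic subunit of RNA polymerase I, read 45.7, 34.3 and 36.0 CPM against 72.7, 62.6 and 47.8 CPM. Its groups did not overlap either, although the highest Hopx-CreER and the lowest Lgr5-CreER library lay close together, and at -0.66 ± 0.19 (edgeR adjusted p 0.0525) it did not pass. DESeq2 called Polr1a lower (DESeq2 adjusted p 0.0155), and limma-voom did not (limma-voom adjusted p 0.0689). Polr1b, the second-largest subunit, read 158, 131 and 137 CPM against 194, 185 and 167 CPM, for a log2 fold change of -0.36 ± 0.12 (edgeR adjusted p 0.0765). Ubtf, which keeps rDNA chromatin open, and Rrn3, which brings the polymerase to the promoter, had log2 fold changes of -0.26 and -0.27. The groups stayed apart for Ubtf and overlapped for Rrn3.

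**Figure D2:**
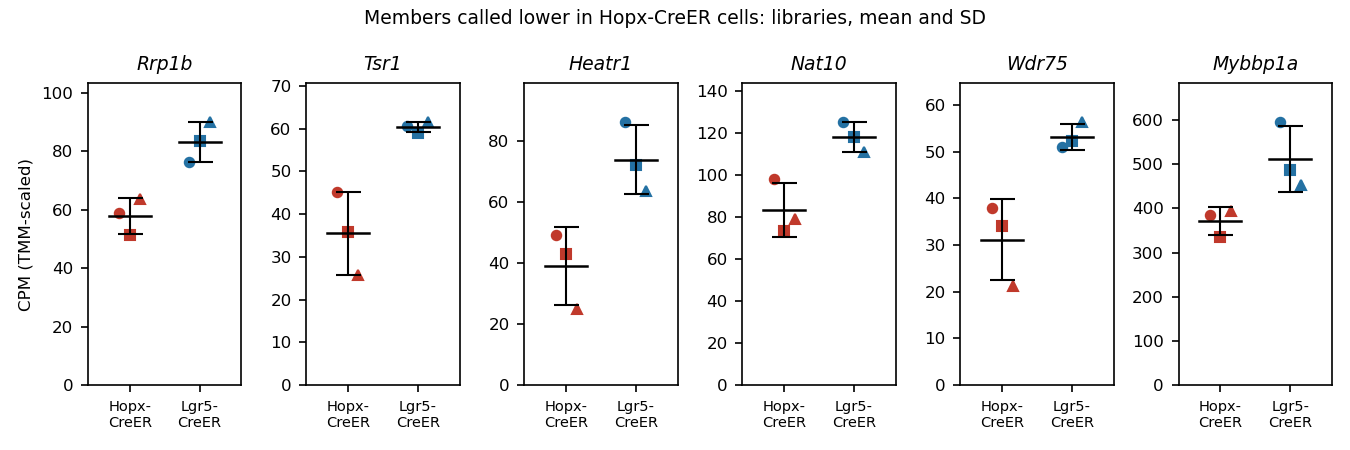
TMM-scaled CPM of the 6 genes called lower in Hopx-CreER cells, with 1 point per library, a bar at the group mean and whiskers of 1 SD (n = 3 libraries a group), on axes that start at 0. For all 6 genes the Hopx-CreER points lie below the Lgr5-CreER points.

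Core proteins of the box C/D snoRNPs, which methylate ribosomal RNA, gave 0 calls among 3 genes by edgeR, DESeq2 and limma-voom, with 2 at an unadjusted p under 0.05. Nop56, one of the paired scaffold proteins of the complex, read 288, 271 and 334 CPM in Hopx-CreER libraries and 339, 392.03 and 413 CPM in Lgr5-CreER libraries. The groups came within a few CPM of each other without overlapping, and the log2 fold change was -0.36 ± 0.12 (edgeR adjusted p 0.0919). Fbl, the methyltransferase fibrillarin, was nearly constant in Hopx-CreER cells at 119, 118 and 123 CPM, below 156, 130 and 147 CPM in Lgr5-CreER cells (-0.26 ± 0.11; edgeR adjusted p 0.155). Nop58, the other scaffold protein, read 10.6, 13.0 and 4.08 CPM against 12.6, 14.3 and 15.9 CPM. Here only Hopx-CreER library 3 stood clearly lower, and library 2 lay above the lowest Lgr5-CreER library. Per kilobase of annotated exon, Nop56 was at 93.0 and Nop58 at 1.33 CPM per kb in Lgr5-CreER cells, though both proteins sit in the same particle. The joined exons of all annotated transcripts spanned 4099 bases for Nop56 and 10758 bases for Nop58.

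Box H/ACA snoRNPs, which convert uridine to pseudouridine in ribosomal RNA, also gave 0 calls among 4 genes, with 1 at an unadjusted p under 0.05 and 0 calls by DESeq2 and by limma-voom. Gar1, a small subunit of the particle, read 39.4, 43.6 and 41.7 CPM in Hopx-CreER and 68.2, 47.4 and 50.4 CPM in Lgr5-CreER cells, with separate groups and library 1 of the Lgr5-CreER cells far above the others (-0.41 ± 0.17; edgeR adjusted p 0.145). Dkc1, the pseudouridine synthase dyskerin, read 25.0, 30.7 and 10.5 CPM against 36.4, 38.7 and 33.6 CPM. Its groups were apart, and library 3 of the Hopx-CreER cells was again the lowest by far. Nhp2 read 171, 199 and 232 CPM against 246, 207 and 220 CPM, and the groups overlapped. Nop10, the smallest subunit, also overlapped, at 130 ± 22.5 against 141 ± 30.1 CPM (SD, n = 3), and its fitted value was above 0 without Hopx-CreER library 1 or Lgr5-CreER library 1. The summed level of these 4 genes ran from 343 to 426 CPM in Hopx-CreER and from 416 to 526 CPM in Lgr5-CreER libraries, the single role whose sums overlapped between the groups.

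**Figure D3:**
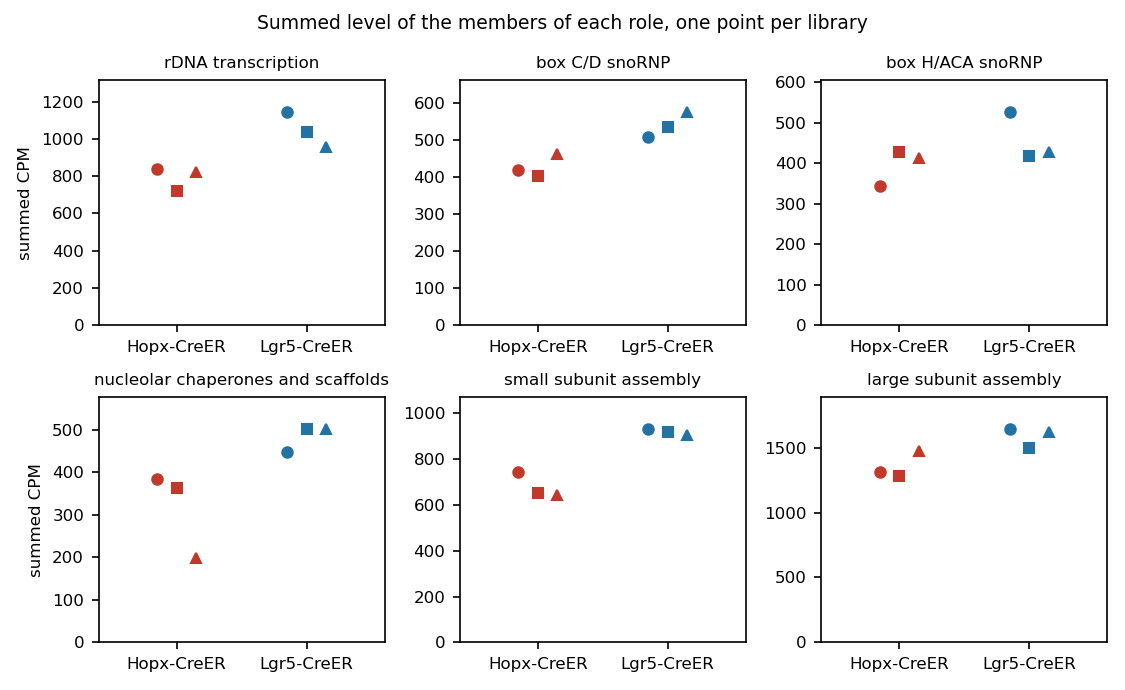
Summed TMM-scaled CPM of the members of each role, with 1 point per library and axes that start at 0. Red points are Hopx-CreER and blue points Lgr5-CreER libraries, and the sums of the groups overlap for box H/ACA snoRNP genes alone.

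Nucleolar chaperones and scaffolds had a median log2 fold change of -0.76, and 0 of 5 passed the edgeR test, against 3 at an unadjusted p under 0.05. The median rested on Hopx-CreER library 3 and was -0.42 without it, beside -0.41 for small subunit assembly in the same fit. DESeq2 called Gnl3, Ncl and Nolc1 lower, and limma-voom called none. Nolc1, a phosphoprotein that accompanies both kinds of snoRNP, read 165, 134 and 116 CPM in Hopx-CreER cells and 185, 185 and 186 CPM in Lgr5-CreER cells. The Lgr5-CreER values were almost equal and all above the Hopx-CreER ones, and the log2 fold change was -0.42 ± 0.14 (edgeR adjusted p 0.0753). Gnl3, the GTPase nucleostemin first described in stem cells, read 26.3, 30.7 and 13.5 CPM against 33.6, 46.1 and 44.1 CPM (-0.81 ± 0.28; edgeR adjusted p 0.0972). Ncl, the abundant nucleolar protein nucleolin, read 36.6, 36.5 and 14.1 CPM against 46.9, 53.6 and 52.4 CPM (-0.81 ± 0.31; edgeR adjusted p 0.128). In both genes the groups were apart and library 3 of the Hopx-CreER cells was the lowest. Npm1, the histone and ribosomal protein chaperone nucleophosmin, followed the same order at 128, 137 and 44.2 CPM against 154, 184 and 189 CPM. Its processed copies elsewhere in the genome may share reads with it. Ddx21, an RNA helicase, overlapped between the groups.

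Small subunit assembly held 4 of the 6 calls. Tsr1, a late factor of the pre-40S particle that resembles a GTPase, read 45.1, 35.7 and 25.7 CPM in Hopx-CreER libraries and 60.7, 59.0 and 61.4 CPM in Lgr5-CreER libraries. The Lgr5-CreER libraries were within a few CPM of each other and all higher, and the log2 fold change was -0.77 ± 0.20 (edgeR adjusted p 0.0342). Heatr1, a large scaffold of the early small subunit particle, read 49.4, 42.9 and 24.8 CPM against 86.2, 72.2 and 63.6 CPM. This was the largest change among the 6 called genes, 1.89-fold higher in Lgr5-CreER cells (-0.92 ± 0.24; edgeR adjusted p 0.0356). Nat10, which acetylates cytidines of 18S rRNA, read 98.2, 73.4 and 79.2 CPM against 125, 118 and 111 CPM (-0.50 ± 0.13; edgeR adjusted p 0.0409). Wdr75, a WD-repeat protein of the early particle, stood at 31.1 ± 8.70 against 53.2 ± 2.73 CPM (SD, n = 3), and its log2 fold change was -0.77 ± 0.21 (edgeR adjusted p 0.0419). The groups did not overlap in any of these 4 genes. Without Hopx-CreER library 3, Heatr1, Wdr75, Tsr1 and Nat10 kept their calls, with log2 fold changes of -0.70, -0.58, -0.59 and -0.47. Of the 6 fits that left out a library, each of these 4 genes was called in only 2, those without Hopx-CreER library 1 or 3.

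Of the other 10 small subunit genes none passed the edgeR test, and their log2 fold changes spread widely. DESeq2 called Utp20 alone of these 10 lower, and limma-voom called none. Utp20, a very long scaffold of the same early particle, had the lowest value of all members, -1.44 ± 0.44 (edgeR adjusted p 0.0649). It read 7.30, 4.98 and 3.80 CPM against 17.2, 20.4 and 6.25 CPM, and Lgr5-CreER library 3 fell within the Hopx-CreER range. Without that library edgeR called Utp20 and Polr1a, at adjusted p of 0.0227 and 0.0448, and no other member. Rrp12, tied to nuclear export of the subunits, was tight within groups at 68.3 ± 1.11 against 86.7 ± 5.03 CPM (SD, n = 3; -0.34 ± 0.11; edgeR adjusted p 0.0761). Wdr43 and Nob1, the nuclease that makes the final cut of 18S rRNA, had separate groups too, at -0.83 and -0.27. Without Hopx-CreER library 3 the value of Wdr43 was -0.48. The groups overlapped for Bms1 and Ltv1, factors of early and late particles, and for Nop14, Noc4l and Rrp9, a U3 snoRNP protein. Ddx10, a helicase, was the least abundant member at 1.73 ± 1.49 against 2.26 ± 0.93 CPM, too near the level of a few counts to order the groups. The fitted values of Ddx10 and Nop14 turned slightly positive, at 0.05 each, without Hopx-CreER library 3, as did that of Rrp9, at 0.0016, without Hopx-CreER library 2.

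Large subunit assembly held 1 call among 11 genes. Rrp1b, a nucleolar protein of 60S precursors, read 58.8, 51.4 and 63.6 CPM in Hopx-CreER and 76.3, 83.4 and 89.8 CPM in Lgr5-CreER cells. The groups were well apart, and at -0.52 ± 0.13 it had the smallest p of the members (edgeR adjusted p 0.0318). Its call held in only 1 of the 6 fits that left out a library, the one without Hopx-CreER library 3 (edgeR adjusted p 0.0107). Noc3l, a partner in pre-60S transport, read 5.87, 6.42 and 3.33 CPM against 9.56, 9.49 and 10.8 CPM (-0.93 ± 0.31; edgeR adjusted p 0.0808). DESeq2 called Noc3l lower (DESeq2 adjusted p 0.0269), and limma-voom did not (limma-voom adjusted p 0.0665). Nop2, a methyltransferase of the large rRNA, read 181, 174 and 195 CPM against 233, 208 and 248 CPM (-0.32 ± 0.11; edgeR adjusted p 0.0848). Both had separate groups. Pes1, Bop1 and Wdr12 form one complex that is needed for 60S maturation, and none of the 3 passed. Wdr12 was apart at 66.9 ± 9.47 against 81.9 ± 3.56 CPM (SD, n = 3), Pes1 overlapped at 166 ± 16.0 against 182 ± 13.2 CPM, and Bop1 was the 1 member with a positive fitted value (0.08 ± 0.11), at 240 ± 23.0 against 226 ± 19.1 CPM. The value of Bop1 was below 0 with library totals alone, with GC offsets and, at -0.01, without Hopx-CreER library 3. Rrs1, Nip7, Ebna1bp2 and Mrto4 had separate groups and log2 fold changes of -0.34, -0.29, -0.17 and -0.26, and Noc2l overlapped at -0.29.

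**Figure D4:**
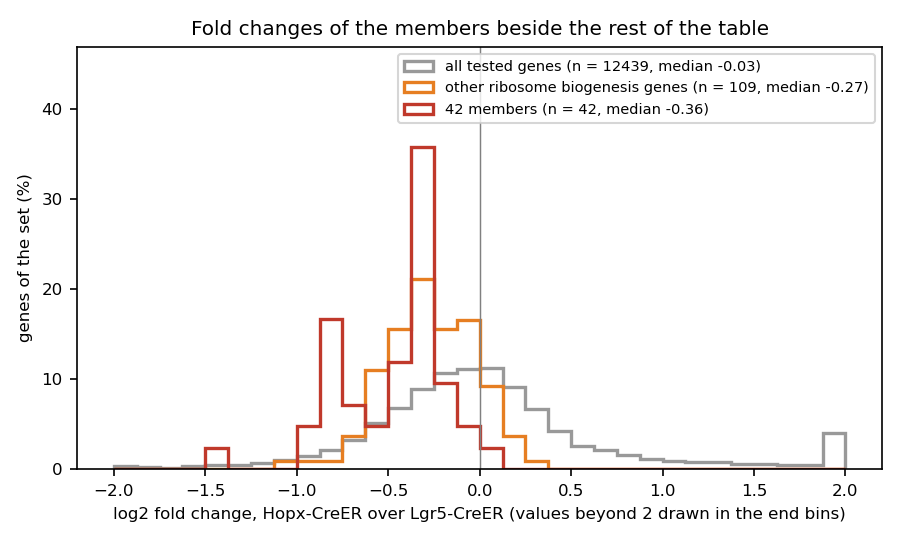
Distribution of log2 fold changes, negative where Hopx-CreER is lower, as a percentage of each set, in bins of equal width, for the 42 members (red), 109 other ribosome biogenesis genes (orange) and all 12439 tested genes (grey). The members peak left of 0, with a smaller group near -0.8, values beyond 2 in either direction are drawn in the end bins, and the medians are -0.36, -0.27 and -0.03.

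Other genes of the pathway mostly had fitted values below 0, and few passed the test. Of 113 further ribosome biogenesis genes, 111 were found and 109 tested, and 94 of these had a log2 fold change below 0, with a median of -0.27. Only 3 (2.75%) were called lower and 0 higher, close to the 3.30% of all tested genes, and 29 were lower at an unadjusted p under 0.05, against 0 higher. DESeq2 called 6 of them (5.50%), close to its 5.58% of all tested genes, and limma-voom 3. The called genes were Ftsj3 and Nol9 of the large subunit and Wdr36 of the small subunit. Ftsj3, a methyltransferase, stood at 73.1 ± 17.6 against 124 ± 9.92 CPM (SD, n = 3; -0.76 ± 0.18; edgeR adjusted p 0.0219). Nol9, a polynucleotide kinase of rRNA processing, had -0.41 ± 0.11 (edgeR adjusted p 0.0457), and Wdr36, a small subunit scaffold, -0.41 ± 0.11 (edgeR adjusted p 0.034). By role, the medians were -0.36 over 11 further genes of the polymerase I machinery, -0.25 over 37 of the small subunit, -0.31 over 40 of the large subunit, -0.19 over 9 snoRNP assembly factors and -0.17 over 12 genes of the RNA exosome, which trims precursor ends. The called count was 8 without Hopx-CreER library 3 and 1 without Lgr5-CreER library 1, beside 4.6% and 1.58% of all tested genes called lower. It was 0 without Hopx-CreER library 2, Lgr5-CreER library 2 or Lgr5-CreER library 3, beside 1.7%, 0.911% and 1.26%.

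Among 10 genes of the MYC network, 2 were lower and 2 higher in Hopx-CreER cells. Myc read 210, 202 and 136 CPM in Hopx-CreER and 289, 307 and 322 CPM in Lgr5-CreER libraries, with separate groups (-0.74 ± 0.16; edgeR adjusted p 0.0167). Mycl, its relative, read 111, 102 and 111 CPM against 204, 177 and 183 CPM (-0.80 ± 0.11; edgeR adjusted p 0.00203). Mxd1, which competes with MYC for MAX, rose by 1.32 ± 0.21 (edgeR adjusted p 0.00477), and Mlx, a partner of related factors, by 0.71 ± 0.13 (edgeR adjusted p 0.0081). The 8 members with CACGTG in the promoter had a median log2 fold change of -0.44 and 2 calls, and the 29 matched members without it -0.37 and 4 calls. All Hopx-CreER libraries lay below all Lgr5-CreER libraries in 4 of those 8 and in 19 of those 29. Of 12 proliferation markers, 3 were called lower, all subunits of the replicative helicase (Mcm2, Mcm3 and Mcm6), and 0 higher. Among the rest, the mitotic genes Ccnb1, Cdk1 and Plk1 had log2 fold changes of -0.06, 0.10 and 0.07 and did not pass. Over the 12 markers the log2 fold changes ran from -1.33 to 0.22, with a median of -0.16, 8 values below 0 and 4 above. At an unadjusted p under 0.05, 4 markers were lower and 0 higher, beside 11.1% and 16.3% of tested genes. In 5 markers all Hopx-CreER libraries lay below all Lgr5-CreER libraries, and in 1 all lay above. The summed level of those markers was 2523 to 2704 CPM in Hopx-CreER and 3019 to 3246 CPM in Lgr5-CreER libraries, and its part in the nucleolar result was not tested.

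Hopx-CreER library 3 stood apart from the other Hopx-CreER libraries in many members. Its column name alone carries an extra tag that the labels do not explain, and the part of whatever that tag marks was not tested. In 10 of them (Nop58, Dkc1, Ncl, Npm1, Gnl3, Ddx21, Nop14, Wdr43, Bms1 and Ddx10) it lay more than 1 log2 unit below the mean of Hopx-CreER libraries 1 and 2, and the longest transcripts of these genes had a GC content of 41.0% to 49.3%. In 22 other members library 3 was the higher, with GC contents of 40.4% (Wdr12) to 59.9% (Rrp9), so that members of low GC content, among them Wdr12, Nip7, Rrn3 and Ebna1bp2, lay on both sides. Over the 42 members, GC content and this deviation had a Spearman rho of 0.621, and over 12426 tested genes one of 0.478. The log2 fold changes of the main fit also rose with GC content, with a rho of 0.539 over the members and 0.25 over those tested genes. These values are descriptions across genes that share the same libraries. In libraries 1 and 2 alone the median log2 difference of the members from the Lgr5-CreER mean was -0.36 and hardly followed GC content (rho 0.165). With offsets for GC content in every library edgeR called 23 members lower and 0 higher, beside 8.34% of all tested genes called lower, and the median of the members was -0.52.

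**Figure D5:**
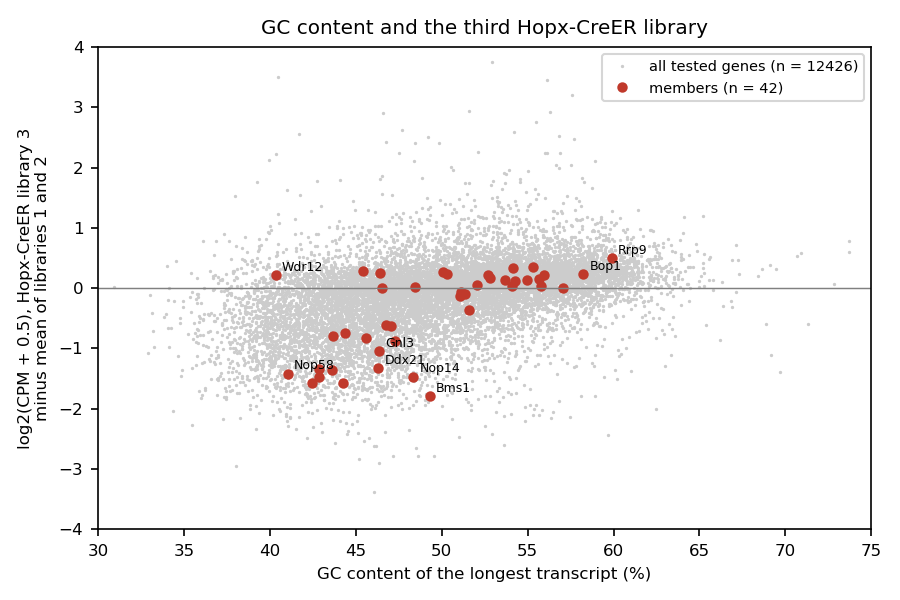
Difference of Hopx-CreER library 3 from the mean of Hopx-CreER libraries 1 and 2, as log2(CPM + 0.5), against the GC content of the longest transcript, for the 42 members (red, 8 labelled) and all tested genes with a GC value (grey). Members of low GC content sit mostly below 0 and members of high GC content around or slightly above it.

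Several members are host genes, whose introns hold snoRNA genes that guide the modification of rRNA. In GENCODE M21, 7 members (Nop56, Nop58, Dkc1, Ncl, Gnl3, Wdr43 and Tsr1) contain 21 annotated snoRNA genes on their own strand, 5 of them in Nop56. These 7 hosts had log2 fold changes of -0.83 to -0.36 and separate groups in 6, with Tsr1 as the single call. Their median was -0.77 and their median GC content 44.3%, against -0.34 and 51.1% in the other 35 members. Without Hopx-CreER library 3 the medians were -0.48 for the hosts and -0.37 for the others. Exons of 13 members overlap exons of a protein-coding gene on the opposite strand, and the libraries do not mark the strand, so that reads there cannot be told apart. Among called genes these partners were Spns2 for Mybbp1a (10.9 ± 5.69 against 1.84 ± 0.20 CPM, SD, n = 3), Lgals8 for Heatr1 (41.4 ± 8.45 against 36.7 ± 3.23 CPM), Srr for Tsr1 (8.79 ± 0.81 against 5.56 ± 0.39 CPM) and Hsf2bp for Rrp1b, at no more than 0.185 CPM in any library. Spns2 was called higher (2.56 ± 0.41; edgeR adjusted p 0.00477), Lgals8 and Srr did not pass, and Hsf2bp was too low to test.

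Levels among the members spanned a wide range when set per kilobase of annotated exon. In Lgr5-CreER cells Nhp2 (195.6 CPM per kb), Nop10 (127), Noc2l (118), Nop56 (93.0) and Mybbp1a (88.2) led, and Noc3l (2.50), Utp20 (1.44), Nop58 (1.33) and Ddx10 (0.72) came last. Nucleolin, at 5.001 CPM per kb, stood far below fibrillarin at 34.3 CPM per kb. The lengths join the exons of all annotated transcripts, at 10188 bases for Ncl and 4209 bases for Fbl. GC contents were 42.8% and 52.1%, and the part of length and GC content in this order was not tested. In Hopx-CreER cells Nhp2, Nop10 and Noc2l led as well, at 175, 117 and 96.2 CPM per kb, and neighbours in this order often differ by less than the spread between libraries.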

How the data were processed

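The authors deposited 1 table of raw counts, whole numbers per versioned mouse Ensembl gene, for 6 libraries. Per the labels' protocols, cDNA came from a SMART-Seq v4 kit and libraries from Nextera XT. The submitters' processing notes name kallisto and edgeR, and as build GRCh38, which is human while the identifiers are mouse. For the counting step, settings are not given in the sources used. Symbols, positions, exon lengths and transcript GC content came from GENCODE M21 (GRCm38), which matched 23479 of 23565 rows. Every count column was used. Column names give the gate, an identifying number that the labels do not explain (shared by 2 Lgr5-CreER columns) and, in 1 Hopx-CreER column, a further tag, but no replicate number. Numbers 1 to 3 follow column order and only name a library.

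Genes passing edgeR's default expression filter (12439) were compared with edgeR 4.0.16 in R 4.3.3, by TMM scaling and the quasi-likelihood F-test with Benjamini-Hochberg adjustment at 0.05. Each SE was derived from the F statistic of that gene. Values in log2(CPM + 0.5) serve plots and descriptions. DESeq2 1.42.0 and limma 3.58.1 (voom) were alternatives, and the procedure was checked on simulated counts. The members and lists were chosen with earlier results of these data known. Values per library are printed for the 3 members of each role with the smallest p, and also for Npm1 and Utp20, chosen after their values were seen. Other pathway genes named are among the 3 with the smallest p of their list, and proliferation genes were named after their values were seen. The reads carry no molecular identifiers, and PCR copies are not separate molecules.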

Additional observations from a re-analysis of the deposited data

How the results depend on the processing

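No alternative reversed the sign of the member median or the direction of a member whose library values were chosen by rule. In all 20 alternatives 0 members were called higher. The count of 6 lower members became 17 with library totals alone (5.86% of all genes called lower in that fit), 12 with DESeq2 (5.58%), 12 without a filter on low counts (2.85%), 23 with GC offsets (8.34%), 28 with GC offsets and without Hopx-CreER library 3 (9.26%), 5 with RLE size factors (3.39%) or TMM factors without marker and abundant genes (3.22%), and 0 at an adjusted p under 0.01 (23 at an unadjusted p under 0.05), with glmTreat against a fold of 1.5 (2 at an unadjusted p under 0.05) or after summing the 2 same-numbered Lgr5-CreER columns. It ran from 0 to 11 when 1 library was left out. For the other pathway genes, the main fit gave 3 calls among 109 tested, and other settings are given with the share of all genes called lower. The count became 15 with library totals (5.86%), 6 with upper quartile factors (4.24%), 6 with DESeq2 (5.58%) and 5 without a filter (2.85%). It was 16 with GC offsets (8.34%) and 27 with GC offsets and without Hopx-CreER library 3 (9.26%). With columns summed and that library left out it was 1 (2.72%). At 0.01 it was 0 (0.796%), and by glmTreat it was 0 (0.482%). With columns summed it was 0 as well (131 of 12861 tested genes called lower). It was 0 to 8 without 1 library (0.911% to 4.6%). The member median of -0.36 became -0.48 with library totals, -0.41 with upper quartile factors, -0.39 with limma-voom, -0.52 with GC offsets and -0.48 with GC offsets and without Hopx-CreER library 3, and ran from -0.40 to -0.37 without 1 library. Library totals moved the median of all genes from -0.03 to -0.15, and the distance of the members from it was -0.33 in both fits. Calls over all genes numbered 1586 (74.1% of them higher in Hopx-CreER), and 654 at 0.01, 592 by glmTreat, 790 with columns summed and 723 to 1868 without 1 library. That share was 56.3% with library totals and 50.2% with GC offsets, 84.9% at 0.01 and 89.9% by glmTreat. Left-out libraries and summed columns leave fewer residual degrees of freedom. The cause of the changes was not tested for any setting. GC offsets together with a left-out library, and summed columns with that library left out, were chosen after seeing the data, as was the count over other pathway genes. No paired analysis was possible because the count columns carry no replicate number. Depth limits Ddx10 most, at 0.463 to 3.38 CPM per library. The sign of the fitted value of Bop1, Nop10, Rrp9, Nop14 and Ddx10 changed without 1 or more libraries.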
